A study of Mus musculus with 4 samples.

Results

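The 9 genes described here act in lipid uptake, lipolysis and lipid transport: Lpl, Mgll, Pon1, Fabp5, Plin2, Apoe, Mfsd2a, Abca1 and Lpar3. They were matched by symbol among the 27998 genes of the count tables of 4 single-cell libraries from mouse lung. All 9 were found. They were picked because earlier results on these same libraries had shown differences between bleomycin and PBS or between ages, so the levels and ratios below describe the genes and are not tests. Cells were kept when they had at least 500 genes, at most 20% of their unique molecular identifiers (UMIs, one per captured transcript) from mitochondrial genes, and at least 5% of their UMIs from Sftpc, the surfactant protein C gene.

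Each of the 4 groups was 1 library, made from the pooled cells of 3 mice. The groups were 12-month-old mice at day 30 after bleomycin, 12-month-old mice given PBS and labelled day 0, 3-month-old mice at day 30 after bleomycin, and 3-month-old mice given PBS and labelled day 0. The bleomycin dose, 1 intratracheal delivery of 0.8 U/kg, followed tamoxifen by 14 days, and the drug is used to injure the alveoli. All mice, those given PBS included, had the genotype Sftpc-creER;Rosa26-mTmG and received tamoxifen. In these mice the Sftpc promoter drives an inducible Cre that switches a membrane reporter to GFP in alveolar type 2 (AT2) cells, and their descendants keep the label. Sorted cells were GFP-positive and negative for CD45 (leukocytes) and CD31 (endothelium). Treatment and day of harvest changed together and cannot be told apart. Because a group is a single library, differences lack a replicate check and no test was possible. Brackets hold 95% intervals for counting error alone, exact unless stated.

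AT2 cells make surfactant, a film that is mostly phospholipid, and store it in lamellar bodies. They take up fatty acids and lysophospholipids from blood and airspace, hold some as triglyceride in lipid droplets, and pass lipid on to surfactant or to lipoproteins. Lipases release fatty acids from glycerides, binding proteins and transporters move them, and cholesterol leaves cells through ABC transporters and apolipoproteins.

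The kept cells numbered 2450 of 2993 that passed the other filters in the 12-month bleomycin library, 2570 of 2745 with PBS at 12 months, 2299 of 2624 with bleomycin at 3 months and 2308 of 2394 with PBS at 3 months. Their UMIs summed to between 10896642 and 31849343 per library. Median UMIs per cell were 12520 and 8552 in the bleomycin libraries at 12 and 3 months, against 5137.5 and 4563.5 in the PBS libraries, and mitochondrial genes held 2.36% and 3.54% of UMIs with bleomycin against 5.25% and 5.34% with PBS. The part of depth and mitochondrial share in the results was not tested. All 12 AT2 markers were found in every library, with Sftpc between 133061 and 164177 CPM. CPM are counts per 1000000, a gene's UMIs scaled to the summed UMIs of the kept cells of its library. Between 7 and 20 barcodes were shared by each pair of libraries.

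RefSeq promoter windows (GRCm38.p6, from 250 bases before to 50 after an annotated start) were found for 7 of the 9 genes. There was no window for Lpl or Fabp5. The 4 windows printed belong to Mgll and Pon1, which were lower with bleomycin at both ages, and to Mfsd2a and Abca1, which had the highest ratios of bleomycin over PBS at 3 months among the 9 genes. Each is written 5′ to 3′ on the gene's strand, and capitals mark motif matches on either strand. The Mgll window lies at chr6:88724162-88724461 on the plus strand, the Pon1 window at chr6:5193897-5194196 on the minus strand, the Mfsd2a window at chr4:122961139-122961438 on the minus strand and the Abca1 window at chr4:53159846-53160145 on the minus strand.
Mgll: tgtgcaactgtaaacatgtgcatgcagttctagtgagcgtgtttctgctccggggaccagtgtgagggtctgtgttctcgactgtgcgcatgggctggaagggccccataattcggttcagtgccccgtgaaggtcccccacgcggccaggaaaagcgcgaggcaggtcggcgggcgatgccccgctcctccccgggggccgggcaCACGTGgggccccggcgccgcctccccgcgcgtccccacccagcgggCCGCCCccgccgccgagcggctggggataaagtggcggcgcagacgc
Pon1: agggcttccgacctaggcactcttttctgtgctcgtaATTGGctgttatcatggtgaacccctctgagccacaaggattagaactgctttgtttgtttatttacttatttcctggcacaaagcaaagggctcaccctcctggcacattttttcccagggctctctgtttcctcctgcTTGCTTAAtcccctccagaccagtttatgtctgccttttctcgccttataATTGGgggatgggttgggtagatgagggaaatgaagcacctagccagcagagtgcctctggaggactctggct
Mfsd2a: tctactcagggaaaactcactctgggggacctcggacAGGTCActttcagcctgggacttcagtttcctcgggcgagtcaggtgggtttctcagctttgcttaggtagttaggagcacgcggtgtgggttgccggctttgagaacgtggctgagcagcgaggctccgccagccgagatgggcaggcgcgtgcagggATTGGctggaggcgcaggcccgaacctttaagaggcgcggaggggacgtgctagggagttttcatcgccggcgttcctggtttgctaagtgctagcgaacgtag
Abca1: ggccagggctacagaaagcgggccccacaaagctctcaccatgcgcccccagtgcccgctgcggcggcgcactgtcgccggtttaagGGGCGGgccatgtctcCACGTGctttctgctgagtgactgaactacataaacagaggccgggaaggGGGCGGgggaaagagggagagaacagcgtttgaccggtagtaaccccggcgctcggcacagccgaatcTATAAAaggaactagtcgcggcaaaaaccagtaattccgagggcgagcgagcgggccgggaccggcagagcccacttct

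In the Mgll window the capitals mark 1 E-box (CACGTG) and 1 GC box (GGGCGG, on the opposite strand). The Pon1 window held 2 CCAAT boxes (CCAAT), both on the opposite strand, and 1 C/EBP palindrome (TTGCNNAA). Mfsd2a had 1 nuclear receptor half-site (AGGTCA) and 1 CCAAT box, and Abca1 had 1 TATA box (TATAAA), 1 E-box and 2 GC boxes. A D-box (TTATGNAA) and pairs of the half-site spaced by 1 or 4 bases, which contain the half-site, were also searched on both strands, and none was in these 4 windows. Of 32851 windows of the same length, 7.15% held the E-box, 35.7% the GC box, 37.4% the CCAAT box, 10.8% the C/EBP palindrome, 16.3% the half-site, 13.6% the TATA box and 3.38% the D-box. Only 0.0396% held the half-site pair spaced by 1 base and 0.0152% the pair spaced by 4. The matches are descriptions of letters and were not tied to any factor.

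The hydrolases Lpl, Mgll and Pon1 had lower levels in both bleomycin libraries than in both PBS libraries. Lpl (chromosome 8, 68880491 to 68907448, plus strand, GRCm38) encodes lipoprotein lipase, which frees fatty acids from circulating triglyceride. It stood at 3.96 CPM (3.30 to 4.71; 126 UMIs) in the 12-month bleomycin library, against 45.1 CPM (41.5 to 48.8; 599 UMIs) with PBS at 12 months. At 3 months it stood at 4.13 CPM (3.30 to 5.10; 86 UMIs) with bleomycin, against 28.4 CPM (25.3 to 31.7; 309 UMIs) with PBS. Intervals of the bleomycin libraries overlapped each other and lay well below both PBS intervals, and the 12-month PBS level was above the 3-month PBS level. The ratio was 11.4-fold lower with bleomycin than with PBS at 12 months (9.39 to 13.9) and 6.87-fold lower at 3 months (5.39 to 8.83).

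Mgll (chromosome 6, 88724412 to 88828360, plus strand) encodes monoacylglycerol lipase, which splits monoacylglycerols into fatty acid and glycerol. Its level was 3.33 CPM (2.73 to 4.03; 106 UMIs) with bleomycin and 28.7 CPM (25.9 to 31.7; 381 UMIs) with PBS at 12 months. With bleomycin at 3 months it was 5.76 CPM (4.78 to 6.89; 120 UMIs), against 32.2 CPM (28.9 to 35.8; 351 UMIs) with PBS. The PBS intervals of the 2 ages overlapped, while the bleomycin intervals did not overlap each other or those of PBS. Mgll was 8.61-fold lower with bleomycin at 12 months (6.93 to 10.8) and 5.59-fold lower at 3 months (4.53 to 6.94).

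Pon1 (chromosome 6, 5168090 to 5193946, minus strand) encodes paraoxonase 1, an esterase and lactonase that is carried on high-density lipoprotein in blood. It was counted at 6.84 CPM (5.97 to 7.82; 218 UMIs) with bleomycin and 59.9 CPM (55.8 to 64.2; 796 UMIs) with PBS at 12 months. At 3 months the level was 8.83 CPM (7.60 to 10.2; 184 UMIs) with bleomycin and 35.8 CPM (32.3 to 39.5; 390 UMIs) with PBS. As for Lpl, the 12-month PBS level was the highest. The bleomycin intervals overlapped each other, but the ratio of 12 over 3 months with bleomycin was 0.775 (0.634 to 0.948), an interval that leaves out 1. Neither of these bleomycin libraries reached 20 CPM. Against PBS, Pon1 was 8.75-fold lower with bleomycin at 12 months (7.52 to 10.2) and 4.05-fold lower at 3 months (3.39 to 4.86). Its paralogs Pon2 and Pon3 did not pass 2-fold in any comparison: Pon2 was at 133 CPM with bleomycin and 115 CPM with PBS at 12 months, and Pon3 at 188 and 124 CPM in the same libraries.

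**Figure D1:**
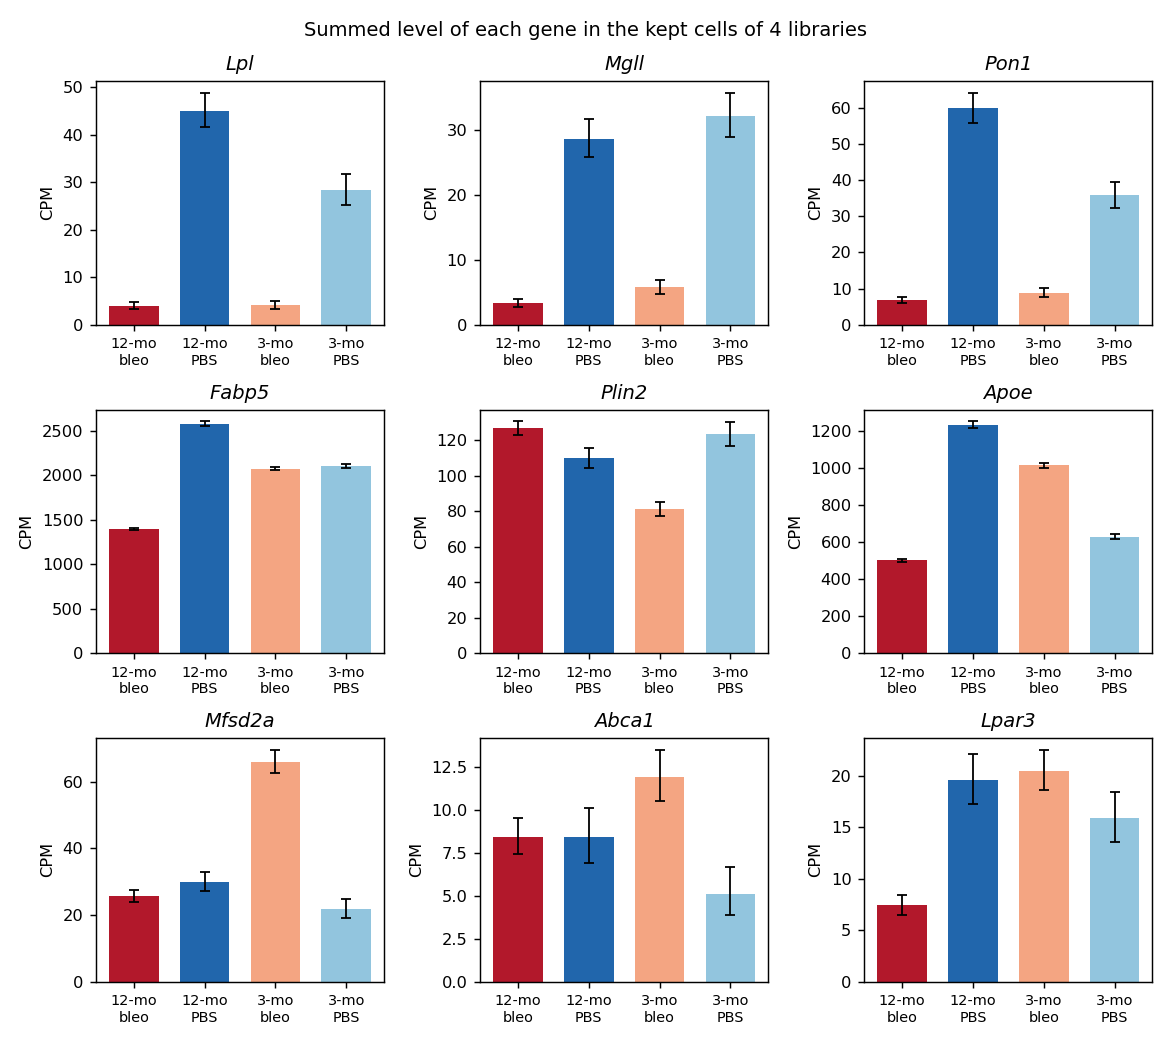
Summed level of each of the 9 genes (CPM, linear axis from 0) in the kept cells of the 12-month bleomycin, 12-month PBS, 3-month bleomycin and 3-month PBS libraries. Bars are levels and lines are exact Poisson 95% intervals (counting error only, 1 library each); Lpl, Mgll and Pon1 are under 9 CPM in both bleomycin libraries and over 28 CPM in both PBS libraries.

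The carrier and droplet genes had smaller differences. Fabp5 (chromosome 3, 10012548 to 10016607, plus strand) encodes a cytosolic fatty acid-binding protein. The mouse genome holds processed copies of it, and how reads shared with them were counted is not given in the sources used here. Its level was 1398 CPM (1385 to 1411) with bleomycin and 2580 CPM (2553 to 2608) with PBS at 12 months, a 1.85-fold lower level (1.82 to 1.87). At 3 months it was 2075 CPM (2055 to 2094) with bleomycin and 2104 CPM (2077 to 2131) with PBS. The 12-month bleomycin library was thus the lowest of the 4 and the 3-month libraries overlapped. The log2 ratio at 3 months was -0.02 (-0.04 to 0.00) and was 0.06 when the 20 most abundant genes were left out of the totals, so no direction is given for it.

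Plin2 (chromosome 4, 86648386 to 86670060, minus strand) encodes perilipin 2, which coats lipid droplets. At 12 months it stood at 127 CPM (123 to 131) with bleomycin and 110 CPM (104 to 116) with PBS, a log2 ratio of 0.21 (0.12 to 0.29). At 3 months it stood at 81.3 CPM (77.4 to 85.2) with bleomycin and 124 CPM (117 to 130) with PBS, a log2 ratio of -0.60 (-0.71 to -0.50). The 12-month bleomycin and 3-month PBS intervals overlapped at the top of the order, and 3-month bleomycin was lowest. The signs at the 2 ages were opposite, and neither ratio reached 2-fold.

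Of the lipoprotein and sterol export genes, Apoe was lower with bleomycin at 12 months and higher with it at 3 months. Apoe (chromosome 7, 19696109 to 19699188, minus strand) encodes apolipoprotein E, a protein component of lipoproteins that is also made by macrophages. Its level was 504 CPM (496 to 512; 16043 UMIs) with bleomycin and 1237 CPM (1218 to 1256; 16435 UMIs) with PBS at 12 months, 2.46-fold lower with bleomycin (2.40 to 2.51). At 3 months it was 1018 CPM (1004 to 1032) with bleomycin and 631 CPM (616 to 646) with PBS, 1.61-fold higher with bleomycin (1.57 to 1.66). No neighbours in the order of the 4 levels had overlapping intervals. The lowest level was that of the 12-month bleomycin library and the highest that of the 12-month PBS library.

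Abca1 (chromosome 4, 53030787 to 53159895, minus strand) encodes the transporter that loads cholesterol and phospholipid onto apolipoproteins. It was at 8.45 CPM (7.47 to 9.52; 269 UMIs) with bleomycin and 8.43 CPM (6.94 to 10.1; 112 UMIs) with PBS at 12 months, which overlap. At 3 months it was at 12.0 CPM (10.5 to 13.5; 249 UMIs) with bleomycin and 5.14 CPM (3.88 to 6.67; 56 UMIs) with PBS, a ratio of 2.33 (1.73 to 3.17). No library reached the minimum of 20 CPM for Abca1, so it is not counted below.

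Mfsd2a had its highest level with bleomycin at 3 months. Mfsd2a (chromosome 4, 122946850 to 122961188, minus strand) encodes a sodium-dependent transporter of lysophosphatidylcholine, a phospholipid with one fatty acid chain. The level was 25.7 CPM (24.0 to 27.6; 820 UMIs) with bleomycin and 29.9 CPM (27.1 to 33.0; 398 UMIs) with PBS at 12 months. In the 3-month libraries it was 66.1 CPM (62.6 to 69.6; 1376 UMIs) with bleomycin and 21.7 CPM (19.1 to 24.7; 237 UMIs) with PBS. The 3-month bleomycin library stood apart from the other libraries, whose intervals overlapped their neighbours. The ratio of bleomycin to PBS was 3.04 (2.64 to 3.50) at 3 months and 0.860 (0.762 to 0.972) at 12 months.

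Lpar3 (chromosome 3, 146220963 to 146286186, plus strand) encodes a G protein-coupled receptor for lysophosphatidic acid. It stood at 7.41 CPM (6.50 to 8.42; 236 UMIs) with bleomycin and 19.6 CPM (17.3 to 22.1; 260 UMIs) with PBS at 12 months. At 3 months it stood at 20.5 CPM (18.6 to 22.5; 427 UMIs) with bleomycin and 15.9 CPM (13.6 to 18.4; 173 UMIs) with PBS. The 12-month bleomycin library was lowest, apart from the other 3 libraries, whose neighbouring intervals overlapped. The 12-month ratio was 2.64-fold lower with bleomycin (2.21 to 3.16), though neither library of that pair reached 20 CPM, and the 3-month ratio was 1.29 (1.08 to 1.55).

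Counted by 1 rule, at least 2-fold with 20 CPM or more in 1 of the 2 libraries, 7 of the 9 genes could be counted for bleomycin against PBS at 12 months. Of these 4 were lower (Lpl, Mgll, Pon1 and Apoe), against 3.96% of the 4701 genes that reached the level, and 0 were higher, against 6.91%. At 3 months 8 genes could be counted: 3 were lower (Lpl, Mgll and Pon1), against 3.34% of 4796 genes, and 1 was higher (Mfsd2a), against 2.71%. Since the genes were picked on these contrasts, nothing is read from their count. The median log2 ratio of all genes counted was 0.10 at 12 months and -0.01 at 3 months. At 12 months 0.0425% of those genes had a lower ratio than Lpl, 0.0851% a lower ratio than Pon1 and 0.128% a lower ratio than Mgll.

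**Figure D2:**
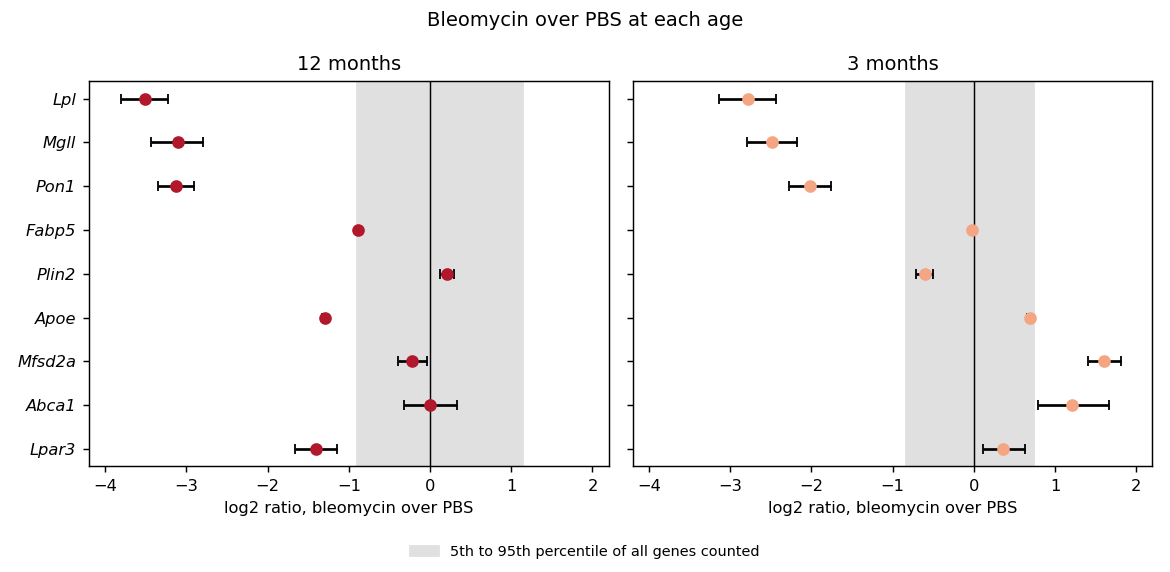
Log2 ratio of bleomycin over PBS for each gene at 12 months (left) and at 3 months (right), with exact 95% intervals (counting error only). The shaded band spans the 5th to 95th percentile of all genes counted; Lpl, Mgll and Pon1 lie left of it at both ages, Apoe and Lpar3 at 12 months only, and Mfsd2a and Abca1 lie right of it at 3 months only.

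In PBS cells, 12 against 3 months, 0 of the 7 genes that could be counted were lower, against 0.795% of 4526 genes, and 0 were higher, against 0.862%. Apoe came nearest, at 1237 CPM at 12 months and 631 CPM at 3 months, a ratio of 1.96 (1.90 to 2.02). It passed 2-fold with a log2 ratio of 1.07 under median-of-ratios scaling and 1.03 without the 20 most abundant genes in the totals. Pon1 (ratio 1.67, 1.48 to 1.89) and Lpl (1.59, 1.38 to 1.83) were also higher at 12 months, and the Mgll ratio of 0.890 (0.768 to 1.03) had an interval that holds 1. The median log2 ratio of all genes counted was -0.11 here.

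In bleomycin cells, 12 against 3 months, 3 of the 5 genes that could be counted were lower (Apoe, Mfsd2a and Lpar3), against 0.458% of 4586 genes, and 0 were higher, against 2.12%. Lpar3 was 2.77-fold lower at 12 months (2.35 to 3.26), Mfsd2a 2.57-fold lower (2.35 to 2.80) and Apoe 2.02-fold lower (1.98 to 2.06). Apoe is at the edge of 2-fold: its log2 ratio of -1.02 was between -0.98 and -0.52 under 6 of 13 other settings. Lpar3 stood only just above the level minimum in the 3-month library and dropped under it in thinned cells. Plin2 was the gene with a higher level at 12 months, a ratio of 1.56 (1.48 to 1.65), and the Lpl ratio of 0.958 (0.723 to 1.28) had an interval that holds 1. These comparisons share libraries with those of bleomycin against PBS, so the values are set side by side and not counted as separate evidence.

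The difference between the log2 ratios of bleomycin over PBS, 12 months minus 3 months, was negative for 8 genes and positive for Plin2. It was -1.99 for Apoe (-2.04 to -1.93), -1.82 for Mfsd2a (-2.08 to -1.56), -1.77 for Lpar3 (-2.13 to -1.41) and -1.21 for Abca1 (-1.73 to -0.68). For Pon1 it was -1.11 (-1.44 to -0.78), for Fabp5 -0.86 (-0.89 to -0.83), for Lpl -0.73 (-1.17 to -0.29) and for Mgll -0.62 (-1.05 to -0.19). Plin2 had 0.81 (0.67 to 0.94). The 3 hydrolases were lower with bleomycin at both ages, and the size of their age difference depended on the setting. Over 13 other settings it lay between -1.31 and -0.20 for Lpl, between -0.72 and -0.25 for Mgll and between -1.24 and -0.84 for Pon1. Apoe, Mfsd2a and Plin2 had opposite signs at the 2 ages with intervals that left out 0. For Mfsd2a the 12-month side of this was slight: its log2 ratio of -0.22 (-0.39 to -0.04) was -0.09 (-0.39 to 0.20) in thinned cells with under 10 transitional-marker UMIs and -0.10 (-0.38 to 0.19) in thinned cells with an injury-marker UMI, both lists being described below.

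**Figure D3:**
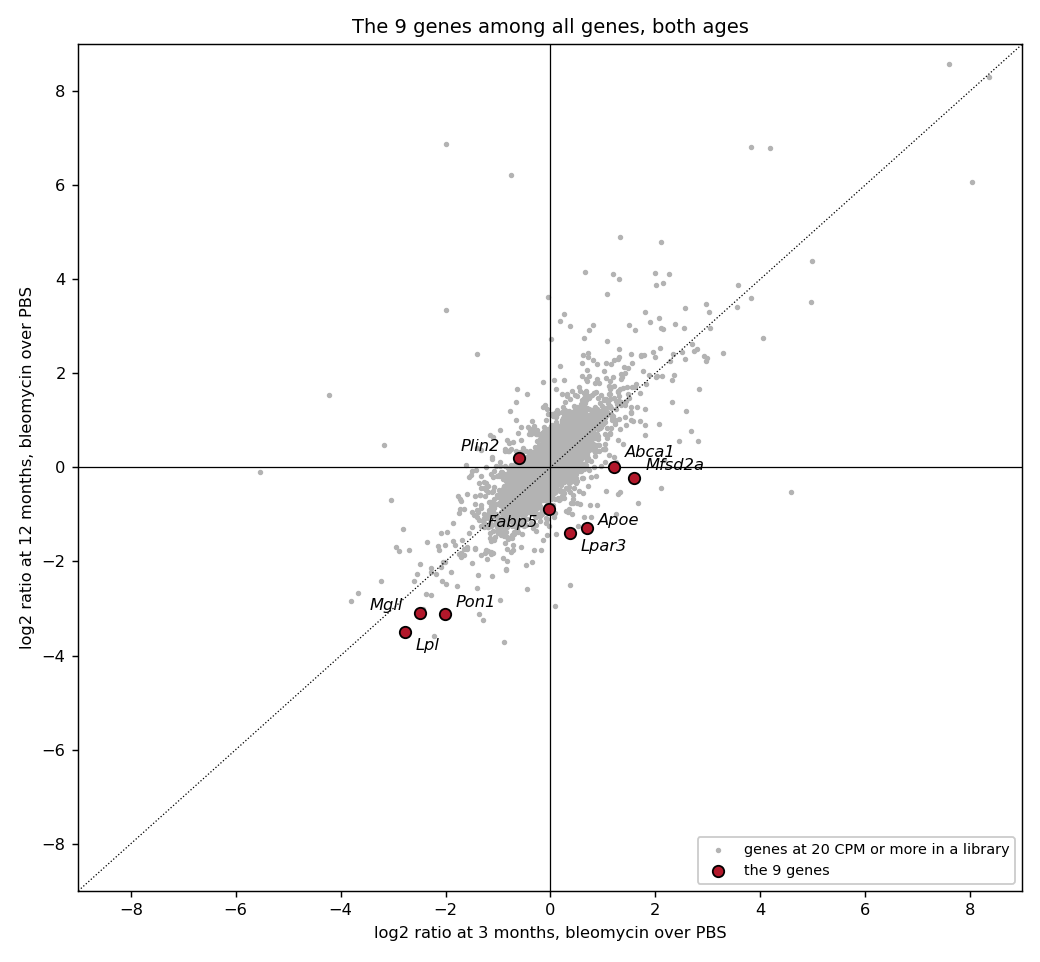
Log2 ratio of bleomycin over PBS at 12 months (vertical) against that at 3 months (horizontal), for all genes that reach 20 CPM in any library (grey) and the 9 genes (red, named); the dotted line marks equal ratios. Lpl, Mgll and Pon1 lie at the lower left, Apoe, Mfsd2a and Lpar3 at the lower right, Abca1 at the right near 0 at 12 months, and Plin2 at the upper left.

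Single cells showed in how many cells the transcripts were found. Each cell was thinned at random to 3000 UMIs, which left 2450, 2328, 2244 and 1952 cells of the 12-month bleomycin, 12-month PBS, 3-month bleomycin and 3-month PBS libraries and dropped 0, 242, 55 and 356 shallower ones. A UMI of Lpl was found in 1.27% of cells (0.861 to 1.79) with bleomycin and 12.3% (11.0 to 13.7) with PBS at 12 months, and in 0.891% (0.545 to 1.37) with bleomycin and 7.38% (6.26 to 8.63) with PBS at 3 months. Without thinning the Lpl shares were 3.92% with bleomycin and 19.6% with PBS at 12 months, and 3.18% with bleomycin and 11.9% with PBS at 3 months. Thinned Mgll shares were 1.14% with bleomycin and 8.20% with PBS at 12 months, and 1.96% with bleomycin and 9.12% with PBS at 3 months. Pon1 was found in 1.80% of cells with bleomycin and 12.9% with PBS at 12 months, and in 2.41% with bleomycin and 8.25% with PBS at 3 months. For these 3 genes fewer cells had a UMI with bleomycin at both ages, and most cells of all 4 libraries had none.

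Free RNA in droplets can give UMIs in cells that do not express a gene. As a measure of it, 128 cells below 5% Sftpc that carried at least 5 UMIs of T, NK or B cell markers were pooled over the libraries, with median depths between 2267 and 4260 UMIs. Of these cells 89 came from the 12-month bleomycin, 19 from the 12-month PBS, 18 from the 3-month bleomycin and 2 from the 3-month PBS library, so the pooled shares stand mostly for 12-month bleomycin. A UMI of Lpl was found in 1.56% of them (0.190 to 5.53), of Mgll in 5.47% (2.23 to 10.9) and of Pon1 in 1.56% (0.190 to 5.53). The thinned bleomycin shares of these 3 genes lay within or below those intervals, so they were not distinguished from background. The intervals are wide and those 128 cells were not thinned, so this does not show absence of expression. The PBS shares of Lpl and Pon1 lay above their pooled intervals. In the 19 such cells of the 12-month PBS library alone, 0 had an Lpl UMI, which allows a share of up to 15.8%. Pon1 was found in 1 of those 19 cells (5.26%, 0.133 to 26.0). The 12-month PBS shares of Lpl and Pon1 lay within these limits, and the 3-month PBS library held only 2 such cells. The PBS shares of Lpl and Pon1 are therefore not read as above the background of their own libraries. The 12-month and 3-month PBS shares of Mgll lay within its interval, but that background was hardly measured in PBS libraries: the 7 Mgll-positive cells were 6 of the 89, 1 of the 18 and 0 of the 19 and 2 cells above, and 0 of 19 cells allows a share of up to 15.8% with an Mgll UMI. The PBS shares of Mgll are therefore not read as background, nor as above it.

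Mfsd2a was found in 7.59% of thinned cells (6.57 to 8.71) with bleomycin and 8.12% (7.04 to 9.30) with PBS at 12 months, and in 16.98% (15.5 to 18.6) with bleomycin and 6.20% (5.17 to 7.36) with PBS at 3 months. The lymphocyte-marker cells had it in 3.13% (0.858 to 7.81), an interval that the 3-month bleomycin and 12-month PBS shares lay above. That pooled interval stands mostly for 12-month bleomycin. In the 12-month PBS library alone 2 of 19 such cells had it (10.5%, 1.30 to 33.1), and in the 3-month bleomycin library 0 of 18 (Clopper-Pearson upper bound 18.5%). Neither share is therefore read as above the background of its own library. Abca1 shares between 1.54% and 3.43% all lay within the interval of the lymphocyte-marker cells, 3.91% (1.28 to 8.88). They were not distinguished from background, which does not show absence of expression. Lpar3 was found in 2.57% of cells with bleomycin and 5.67% with PBS at 12 months, and in 5.53% with bleomycin and 4.41% with PBS at 3 months, beside 0.781% (0.0198 to 4.28) of the lymphocyte-marker cells. Only the 12-month bleomycin share of Lpar3 lay within that interval. The other Lpar3 shares are not read as above background, since few of the pooled cells came from their libraries.

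The 3 more abundant genes were found in larger shares. Fabp5 was found in 83.6% of thinned cells with bleomycin and 97.4% with PBS at 12 months, and in 90.2% with bleomycin and 95.6% with PBS at 3 months. At 3 months its levels differed by less than counting error over all kept cells. In the thinned cells they were 2084 CPM with bleomycin and 2169 CPM with PBS. Plin2 shares were 30.4% with bleomycin and 26.9% with PBS at 12 months, and 20.6% with bleomycin and 28.6% with PBS at 3 months. Apoe was found in 50.1% of cells (48.1 to 52.1) with bleomycin and 90.2% (88.9 to 91.3) with PBS at 12 months, and in 74.6% (72.7 to 76.4) with bleomycin and 71.9% (69.9 to 73.9) with PBS at 3 months. The lymphocyte-marker cells had Fabp5 in 57.8%, Plin2 in 13.3% and Apoe in 44.5% (35.7 to 53.6), and the 12-month bleomycin share of Apoe lay within the last interval.

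Apoe was also spread unevenly over the 12-month bleomycin cells. The variance of its thinned counts was 11.8 times their mean in that library, against 2.57 times in 12-month PBS cells. The value of 11.8 rests in part on 1 cell with 161 Apoe UMIs among its 3000, where the 99th percentile of cells was 12 UMIs. The variance without that cell was not computed. In the 3-month libraries the variance was 4.35 times the mean with bleomycin and 2.14 times with PBS. The tenth of cells with the most Apoe held 55.5% of its UMIs with bleomycin and 28.4% with PBS at 12 months, and 36.95% with bleomycin and 33.8% with PBS at 3 months. Over cells of 1 library, the 36 pairwise Pearson correlations between the 9 genes lay between -0.05 and 0.16, and in counts this sparse they are given as description only.

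**Figure D4:**
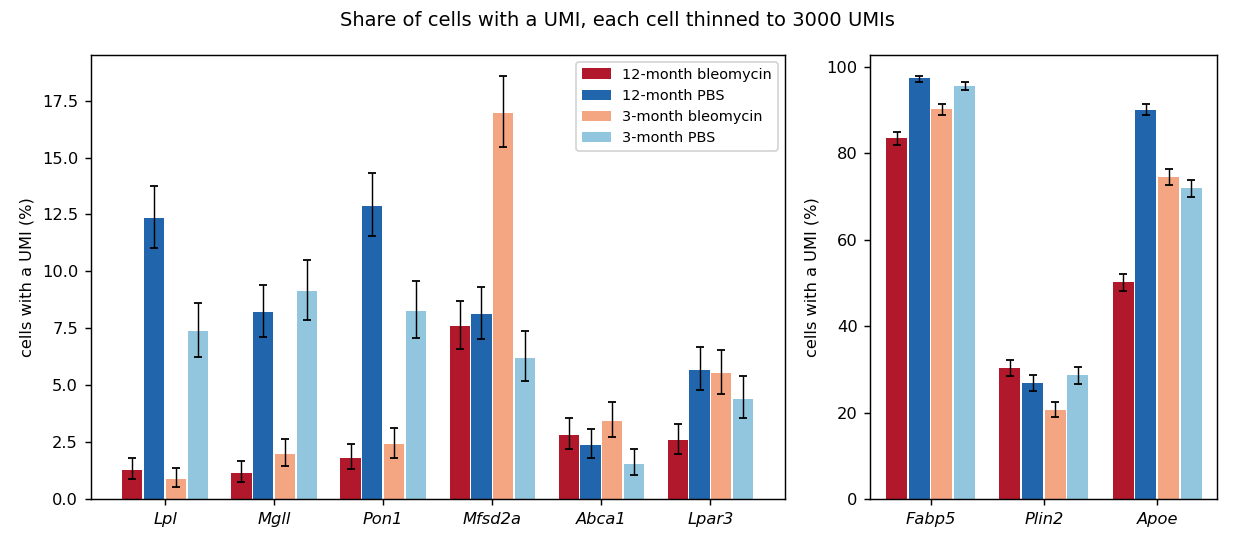
Share of cells with at least 1 UMI of each gene (percent, linear axes from 0) after thinning every cell to 3000 UMIs, in the 12-month bleomycin, 12-month PBS, 3-month bleomycin and 3-month PBS libraries. Lines are exact binomial 95% intervals (counting error only); Lpl, Mgll and Pon1 are under 2.5% in both bleomycin libraries, Mfsd2a is highest at 16.98% with bleomycin at 3 months, and Apoe is lowest at 50.1% with bleomycin at 12 months.

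Levels were next set against the Sftpc share of the cell, in 4 bins from 5% upward (5 to 10, 10 to 15, 15 to 20, and 20 or more percent of UMIs). In PBS cells Pon1 was higher in the bins with more Sftpc: 18.7 CPM in the lowest and 82.0 CPM in the highest bin at 12 months, and 19.9 and 62.5 CPM in the same bins at 3 months. With bleomycin the Pon1 level in the lowest and highest bins was 4.98 and 8.43 CPM at 12 months and 19.6 and 17.04 CPM at 3 months. Between them, the 3-month bleomycin bins from 10 to 15% and from 15 to 20%, with 561 and 1127 cells, held Pon1 at 4.28 CPM (2.68 to 6.48) and 6.65 CPM (5.18 to 8.40), below both end bins of 197 and 414 cells. In the lowest bin the 3-month Pon1 level was near that of PBS, 19.6 CPM with bleomycin and 19.9 CPM with PBS, and in the other 3 bins it was lower with bleomycin. Lpl and Mgll showed no such order in PBS cells: Lpl lay between 40.6 and 48.2 CPM and Mgll between 26.0 and 34.1 CPM over the bins at 12 months, and at 3 months Lpl lay between 26.5 and 41.6 CPM and Mgll between 31.0 and 33.8 CPM.

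Apoe in PBS cells was 822 CPM in the lowest and 1366 CPM in the highest bin at 12 months, and 414 and 1020 CPM at 3 months. With bleomycin at 3 months Apoe was 800, 910, 1106 and 1007 CPM from the lowest to the highest bin, against 414, 587, 804 and 1020 CPM with PBS. It was thus higher with bleomycin in the 3 lower bins, while in the highest bin the intervals overlapped (974.5 to 1040 in 414 cells with bleomycin, 922 to 1126 in 74 cells with PBS). In 12-month bleomycin cells the lowest bin held the highest Apoe level, 722 CPM, and the other bins lay between 441 and 503 CPM. Within that lowest bin of 268 cells, however, the 39 cells from 5 to 6% Sftpc were at 222 CPM (181 to 269). Fabp5 in the lowest bin was 1149 CPM with bleomycin and 2442 CPM with PBS at 12 months, and 1180 CPM with bleomycin and 1959 CPM with PBS at 3 months. In the highest bin at 3 months Fabp5 was 2146 CPM with bleomycin and 2210 CPM with PBS. Between these bins the direction changed. From 10 to 15% Fabp5 was 1875 CPM with bleomycin and 2155 CPM with PBS at 3 months. From 15 to 20%, with 1127 bleomycin cells, it was higher with bleomycin, at 2277 CPM (2249 to 2306) against 2137 CPM (2089 to 2186). Mfsd2a with bleomycin at 3 months lay between 59.4 and 73.4 CPM in all bins, against 17.7 to 29.8 CPM with PBS.

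**Figure D5:**
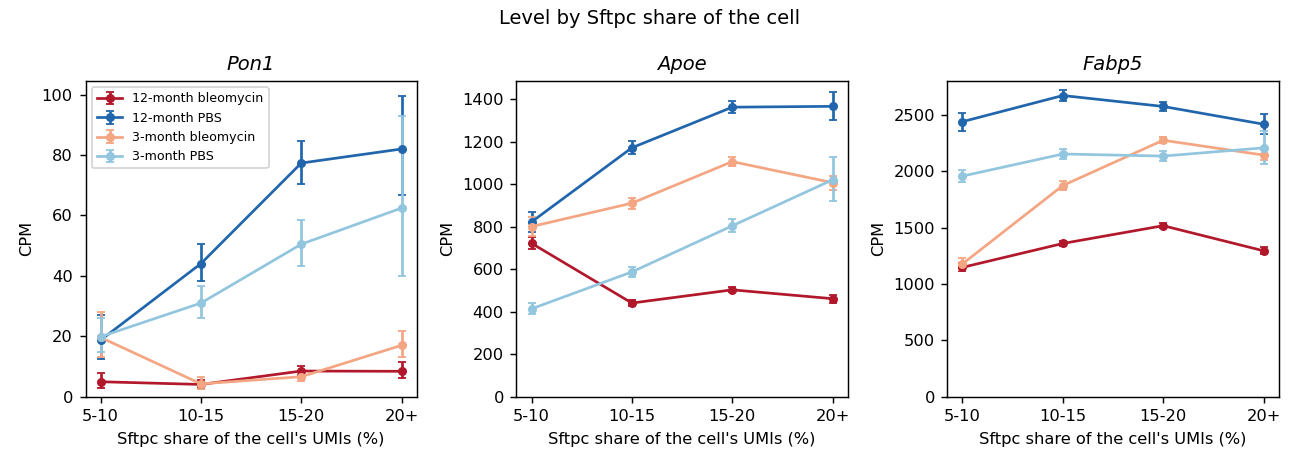
Levels of Pon1, Apoe and Fabp5 (CPM, linear axes from 0) by the Sftpc share of the cell (percent of its UMIs) in the 12-month bleomycin, 12-month PBS, 3-month bleomycin and 3-month PBS libraries, with exact Poisson 95% intervals. Pon1 is higher in bins with more Sftpc in both PBS lines (18.7 to 82.0 CPM at 12 months), and Apoe with bleomycin at 12 months is highest in the lowest bin, at 722 CPM.

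Near the Sftpc minimum the cells were few. Just inside it, from 5 to 6%, lay 39, 32, 23 and 72 cells of the 12-month bleomycin, 12-month PBS, 3-month bleomycin and 3-month PBS libraries, and just outside, from 4 to 5%, lay 26, 20, 16 and 26. Apoe just inside was 222 CPM with bleomycin and 1005 CPM with PBS at 12 months, and just outside 176 CPM with bleomycin and 1632 CPM with PBS. At 3 months Apoe just inside was 1048 CPM with bleomycin and 309 CPM with PBS, and just outside 437 CPM with bleomycin and 327 CPM with PBS. Lpl just inside was 4.31 CPM with bleomycin and 54.5 CPM with PBS at 12 months, and just outside 14.7 CPM with bleomycin and 11.5 CPM with PBS, on 4 and 1 UMIs.

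Markers of macrophages, cells that express several of the 9 genes, moved with bleomycin and with age in the kept cells. The summed level of the 12 macrophage markers was 120 CPM with bleomycin and 27.5 CPM with PBS at 12 months, and 30.001 CPM with bleomycin and 7.25 CPM with PBS at 3 months. Of the 12 markers 11 were detected with bleomycin and 9 with PBS at 12 months, and 10 with bleomycin and 5 with PBS at 3 months, and Siglecf was at 0 in all 4 libraries. A macrophage-marker UMI was found in 65.1% of kept cells with bleomycin and 7.35% with PBS at 12 months, and in 18.5% with bleomycin and 2.99% with PBS at 3 months. These cells were not thinned and the bleomycin libraries were deeper, so the shares are not matched for depth. Leaving out the cells with such a UMI kept 854 cells with bleomycin and 2381 with PBS at 12 months. At 3 months it kept 1873 with bleomycin and 2239 with PBS. The log2 ratios for Lpl were then -4.22 at 12 months and -2.91 at 3 months, against -3.51 and -2.77 in all kept cells. Those for Apoe were -1.28 and 0.67, against -1.30 and 0.69.

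Below the Sftpc minimum, cells with at least 5 macrophage-marker UMIs held much Apoe and Lpl. In 166 such cells of the 12-month bleomycin library Apoe was at 7922 CPM, Lpl at 269.9 CPM, Abca1 at 106 CPM and Plin2 at 311 CPM. In 32 such cells of the 3-month bleomycin library Apoe was at 17673 CPM, Lpl at 732 CPM, Abca1 at 103 CPM and Plin2 at 350 CPM. The PBS libraries had 19 such cells at 12 months and 4 at 3 months. Pon1 had 1 UMI in all 221 cells. With no Sftpc minimum, so that these cells were counted, the log2 ratio of Lpl was -1.49 at 12 months and -1.17 at 3 months, that of Mgll at 12 months was -2.39 against -3.10 in kept cells, and that of Apoe at 12 months was -0.61, under 2-fold.

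Transitional alveolar markers (keratins and other genes of the state between AT2 and AT1 cells) summed to 1950 CPM with bleomycin and 743 CPM with PBS at 12 months, and to 1498 CPM with bleomycin and 1110 CPM with PBS at 3 months. At 3 months S100a6 (179 CPM with bleomycin, 264 CPM with PBS), Sfn (50.5 and 64.1 CPM) and Tnip3 (2.74 and 3.30 CPM) were lower with bleomycin. The other genes of the list were higher with it. Of the thinned cells 299 with bleomycin and 59 with PBS at 12 months, and 166 with bleomycin and 101 with PBS at 3 months, had 10 or more UMIs of this list. That limit cuts a range, with 271, 47, 147 and 75 cells near it in the same libraries. Fabp5 was lower in cells above than in cells below the limit in every library: 919 and 1539 CPM with bleomycin and 1492 and 2640 CPM with PBS at 12 months, and 673 and 2197 CPM with bleomycin and 941 and 2236 CPM with PBS at 3 months. Mfsd2a with bleomycin at 3 months was 22.1 CPM (11 UMIs) above and 71.2 CPM below it. With PBS at 3 months it was 13.2 CPM (4 UMIs) above the limit. A higher Mfsd2a level with bleomycin was thus not detectable there (log2 ratio 0.64, -1.01 to 2.85). In the cells below the limit alone, the log2 ratios of bleomycin over PBS at 12 and 3 months were -3.35 and -3.15 for Lpl, -2.82 and -2.34 for Mgll and -2.88 and -1.80 for Pon1, with intervals that left out 0. In the cells above it the 12-month ratio was -2.79 (-4.83 to -0.95) for Lpl and -3.23 (-5.97 to -1.11) for Mgll, and Pon1 had 0 UMIs with bleomycin and 4 with PBS. At 3 months a lower level was not detectable above the limit: the ratios were -1.85 (-5.43 to 0.57) for Lpl, 0.13 (-2.52 to 3.75) for Mgll and -1.20 (-4.88 to 1.82) for Pon1, on 2 to 5 UMIs per library.

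Markers of injury-activated AT2 cells (7 genes, among them the acute-phase genes Lcn2, Saa3 and Hp) moved more in sum than the transitional list. They summed to 8202 CPM with bleomycin and 2410 CPM with PBS at 12 months, and to 4977 CPM with bleomycin and 1351 CPM with PBS at 3 months, with all 7 detected in every library. At 12 months Hp went the other way, at 449 CPM with bleomycin and 758 CPM with PBS. Il33 was near level there, at 233 CPM with bleomycin and 235 CPM with PBS, and the other listed genes were higher with bleomycin. Nearly all thinned cells had a UMI of this list, and those with none numbered 4 with bleomycin and 61 with PBS at 12 months, and 22 with bleomycin and 157 with PBS at 3 months. In cells with such a UMI the log2 ratios of bleomycin over PBS at 12 and 3 months were -3.33 and -3.16 for Lpl, -2.87 and -2.34 for Mgll and -3.04 and -1.80 for Pon1. In the cells with none at 3 months Lpl was at 30.3 CPM (2 UMIs) with bleomycin and 40.3 CPM (19 UMIs) with PBS, and the interval of its log2 ratio, -3.56 to 1.64, holds 0. The 4 such cells of the 12-month bleomycin library are too few to compare. The part of this list in the results was not tested.

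The other genes of these pathways were read from 8 lists, chosen with earlier results on these libraries known. Of the 23 lipases and their regulators, 6 reached 20 CPM for bleomycin against PBS at each age, and Lpl and Mgll were the ones past 2-fold. On the list of fatty acid uptake, binding and activation (21 genes), 0 of 5 passed 2-fold at 12 months and 1 of 6 was lower at 3 months. This was Cd36, the fatty acid translocase, at 421 CPM with bleomycin and 905 CPM with PBS at 3 months (2.15-fold lower, 2.09 to 2.21), and at 438 CPM with bleomycin and 734 CPM with PBS at 12 months (1.68-fold lower). For lipid droplets and triglyceride synthesis 0 of 6 passed at either age, and for peroxisome proliferator-activated receptors and fatty acid oxidation 0 of 8 did. The median log2 ratios of these 4 lists at 12 and 3 months were -0.26 and -0.12 (lipases), -0.74 and -0.20 (uptake), 0.07 and 0.09 (droplets) and 0.27 and 0.43 (oxidation), beside 0.10 and -0.01 over all genes counted.

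On the list of lipoproteins and sterol export, 2 genes lower with bleomycin at 12 months were Apoe and Npc1. Npc1, which exports cholesterol from lysosomes, stood at 46.3 CPM with bleomycin and 97.1 CPM with PBS at 12 months (2.10-fold lower, 1.94 to 2.26), and at 80.8 CPM with bleomycin and 116 CPM with PBS at 3 months (1.44-fold lower). Of 13 phospholipid transport and remodelling genes at 20 CPM, 0 passed at 12 months and 2 were higher at 3 months, Mfsd2a and Lpcat3. Lpcat3, an enzyme that adds a fatty acid to lysophospholipids, was at 71.6 CPM with bleomycin and 34.96 CPM with PBS at 3 months (2.05-fold higher, 1.83 to 2.30), and at 65.2 CPM with bleomycin and 33.4 CPM with PBS at 12 months (1.95-fold higher). Of the lysophosphatidic acid list 1 gene reached 20 CPM at 12 months and 2 at 3 months, and 0 passed 2-fold. Medians at 12 and 3 months were -0.36 and -0.17 for the phospholipid list and 0.61 and 0.26 for the lysophosphatidic acid list. Between the ages, Apoe, Mfsd2a and Lpar3 passed 2-fold in bleomycin cells, as given above.

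Genes with the most similar levels over the 4 libraries were sought among 4707 genes, by the root mean square difference of centred log2 levels. For Pon1 the nearest was Igfbp6 (0.18 log2 units), at 19.0 CPM with bleomycin and 154 CPM with PBS at 12 months and 23.7 CPM with bleomycin and 127 CPM with PBS at 3 months. Igfbp6 was also nearest to Lpl (0.27), followed by Pon1 (0.30) and Bex4 (0.39). For Mgll the order was Bex2 (0.20), Bex4 (0.22) and Igfbp6 (0.23). Bex2 stood at 47.8 CPM with bleomycin and 576 CPM with PBS at 12 months, and at 106 CPM with bleomycin and 491 CPM with PBS at 3 months. With 4 points per gene these likenesses are descriptions.

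For Fabp5 the nearest genes were Azin2 (0.02), Slc25a16 (0.04) and Hc (0.07), and for Plin2 Hnrnpl, Epha2 and Myl12b (0.09 each). Apoe was nearest to Ntn1 (0.09), Bcas3 (0.10) and Spink5 (0.16), all at under 31 CPM. Mfsd2a was nearest to Id3 (0.15), Rasd2 (0.16) and Cpeb3 (0.23), and Abca1 to Bmf (0.10), Pcx (0.10) and Kcnq1 (0.13). Lpar3 was nearest to the fatty acid receptor gene Ffar4 (0.17), then Sema3b (0.17) and Scd1 (0.19), which encodes a stearoyl-CoA desaturase. Scd1 stood at 3020 CPM with bleomycin and 6232 CPM with PBS at 12 months, and at 5851 CPM with bleomycin and 5615 CPM with PBS at 3 months.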

How the data were processed

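The deposited values are UMI counts per gene and cell barcode, whole numbers with no normalization seen in them; per the labels, the libraries were made with a 10x Genomics 3' kit and sequenced on an Illumina instrument. Per the submitters' processing notes, build mm10, Seurat 3.2.2 and Cell Ranger were used, the last with no version in the sources used here. Here, counts were summed over kept cells and scaled to CPM with Python 3.11.15, pandas 2.3.3, scipy 1.17.1 and numpy 2.4.6, and drawn with matplotlib 3.10.9. A prior of 0.5 counts was added before log2 ratios were taken. Ratio intervals are exact conditional-binomial, levels exact Poisson, shares Clopper-Pearson, and differences between ages normal, all at 95% and for counting error only. Scrublet in scanpy 1.11.5, at 0.8% per 1000 barcodes, called 72, 62, 56 and 47 of the passing barcodes of the 12-month bleomycin, 12-month PBS, 3-month bleomycin and 3-month PBS libraries. They were kept, and left out in an alternative. One thinning (seed 1) to 3000 UMIs was made, the highest multiple of 500 that 80% of kept cells reach in every library.

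The genes, the 8 pathway lists and the markers were chosen with earlier results of these data known. Named beside the 9 genes are list members past 2-fold, up to 4 per direction where the interval does not hold 1, and the 3 genes nearest in level to each of the 9. Coordinates are from GENCODE M21 (GRCm38), which holds 27645 of 27998 gene identifiers. On simulated counts, between 95.1% and 95.9% of ratio intervals held the true ratio in the 4 comparisons. There were 14 alternatives fixed at the start and 2 added after the data were seen. Apoc2 and one T, NK or B cell marker were not matched and were not analysed here. One gene of the lipoprotein list, and that list's count and median, are not reported here.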

Additional observations from a re-analysis of the deposited data

Results flagged for a closer look

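Apoe, Mfsd2a and Plin2 stood out because their ratios of bleomycin over PBS pointed in opposite directions at 12 and 3 months, each with an interval that left out 0 in all kept cells. For Mfsd2a the 12-month ratio lay between -0.31 and -0.06 over 13 other settings, and its interval held 0 in thinned cells with under 10 transitional-marker UMIs (-0.39 to 0.20) and in those with an injury-marker UMI (-0.38 to 0.19), so its lower level at 12 months was not detectable there. For Apoe the higher level with bleomycin at 3 months was not detectable in cells with 20% or more Sftpc, at 1007 CPM with bleomycin and 1020 CPM with PBS, nor in cells with 10 or more transitional-marker UMIs, where the log2 ratio was 0.15 (-0.13 to 0.44). The higher Mfsd2a level with bleomycin at 3 months was also not detectable in cells with 10 or more transitional-marker UMIs (log2 ratio 0.64, -1.01 to 2.85). With 1 library per group the difference between ages itself was not tested. The log2 ratio at 12 months minus that at 3 months was -1.99 for Apoe, -1.82 for Mfsd2a and 0.81 for Plin2. Over 13 other settings it lay between -2.12 and -1.48 for Apoe, between -1.93 and -1.65 for Mfsd2a and between 0.71 and 0.88 for Plin2.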

How the results depend on the processing

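No paired analysis was possible because each group is 1 library with no shared replicate number. For the same reason no replicate could be left out, and the limits of all values are counting error and depth, where 1 count equals 0.0314 CPM (12-month bleomycin) to 0.0918 CPM (3-month PBS). No log2 ratio past 2-fold changed sign. Of 585 alternative values of single genes, 492 moved by less than their counting interval and 93 moved by more; the cause was not tested.

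Counts of the 9 genes depended on the limits. With 100 CPM as the minimum, 1 was lower with bleomycin at 12 months (4 in the main setting), 0 at 3 months (3), 0 were higher at 3 months (1) and 1 was lower between the ages in bleomycin cells (3). That last count was also 1 under median-of-ratios scaling, in thinned cells, and in thinned cells with under 10 transitional-marker UMIs. With no minimum beyond 10 counts 2 were higher with bleomycin at 3 months, and 2 from 1.5-fold. In PBS cells 1 was higher at 12 months under median-of-ratios scaling, 1 without the 20 most abundant genes in the totals and 3 from 1.5-fold (0 in the main setting). In bleomycin cells 1 was higher at 12 months from 1.5-fold (0).

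Over all genes, counts under a 100 CPM minimum, no minimum beyond 10 counts and 1.5-fold were 59, 845 and 497 lower (186 in the main setting) and 95, 2025 and 868 higher (325) for bleomycin against PBS at 12 months. At 3 months they were 60, 672 and 530 lower (160) and 33, 1151 and 431 higher (130). Between the ages they were 13, 449 and 169 lower (36) and 12, 436 and 94 higher (39) in PBS cells, with 59 higher when there was no Sftpc minimum. In bleomycin cells they were 8, 388 and 130 lower (21) and 37, 1033 and 211 higher (97), with 13 lower under median-of-ratios scaling.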

Other observations

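Below 5% Sftpc the genes were found in cells with markers of other types in differing shares. Of 96 cells with at least 5 UMIs of ciliated cell markers, 30.2% (21.3 to 40.4, Clopper-Pearson) had an Abca1 UMI and 26.0% (17.6 to 36.0) an Lpar3 UMI, beside 65.6% (55.2 to 75.0) for Fabp5, 58.3% (47.8 to 68.3) for Apoe and 20.8% (13.2 to 30.3) for Plin2, against 2.08% (0.253 to 7.32) for Mfsd2a and 1.04% (0.0264 to 5.67) for Pon1. No Mgll UMI was found in these 96 cells, which by 3 counts of the total allows a share of up to 3.13% of cells with a UMI (Clopper-Pearson upper bound 3.77%) and sets no limit on expression. Of 503 cells with at least 5 club cell marker UMIs, 11.9% (9.23 to 15.1) had a Pon1 UMI and 46.1% (41.7 to 50.6) a Plin2 UMI. Of 221 cells with at least 5 macrophage-marker UMIs, 65.6% (58.9 to 71.9) had a Plin2 UMI and 37.6% (31.2 to 44.3) an Lpl UMI. Cells of all 4 libraries were pooled for these shares. Median depths were 5040 to 7975 UMIs in the ciliated-marker cells of the libraries and 2267 to 4260 in the lymphocyte-marker cells, of which 3.91% had an Abca1 UMI and 0.781% an Lpar3 UMI, and depths were not matched.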
